A study of Mus musculus with 70 samples.

Results

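ST2+ CD44hi regulatory T cells (Tregs) of the blood were compared with ST2+ CD44hi Tregs of the lungs, to ask what separates circulating from tissue ST2+ Tregs. The members were the samples labelled with those populations whose column of counts summed to more than 1000000, which kept 4 of 5 blood samples and 5 of 5 lungs samples, 9 of the 67 kept samples and of 70 in all. The blood sample of mouse 1 lay just outside that minimum with 488666 counts from 66 sorted cells, and the lowest member inside it was the lungs sample of mouse 4 with 1524842 counts.

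Tregs are CD4+ T cells that restrain immune responses and depend on the transcription factor Foxp3. ST2, encoded by Il1rl1, is the receptor for the alarmin IL-33, and is found on Tregs of barrier and other nonlymphoid tissues, where Tregs also make mediators such as amphiregulin and IL-10. Circulating T cells leave tissues and lymph nodes through the sphingosine-1-phosphate receptor S1pr1, whose gene is driven by Klf2, while T cells that sense antigen, cytokines or tissue stress switch on AP-1, NR4A and NF-kB genes within a short time.

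All samples came from 5 untreated male Foxp3YFP-cre mice of 16.6 to 18.6 weeks, in which YFP and iCre are knocked in at Foxp3, so that every group here, controls included, carries that allele. Live YFP+ CD4+ cells, positive for CD45.2 and negative for lineage markers that include CD8 and CD11b, were sorted as ST2+ CD44hi or ST2- CD44hi from blood, spleen, lungs, visceral adipose tissue (VAT), colon and skin. Each library was 1 sorted sample of up to 220 cells (220 for each lungs ST2+ library, and 202, 55, 220 and 220 for blood mice 2, 3, 4 and 5), amplified as full-length cDNA and sequenced as single reads. Blood was taken by cardiac puncture and its red cells were lysed on ice, without digestion or enrichment. Lungs were perfused with PBS, digested with collagenase IV and DNAse and enriched for CD4 cells on magnetic beads. No label of cells inside the vessels entered the sort. In the paper's separate experiments with a CD45 antibody injected into the vein, most lung Tregs were labelled, with or without ST2. The paper could not exclude circulating Tregs among lung Tregs, and held it unlikely that all were circulating. Blood and lungs differed in tissue and in handling, so these cannot be told apart in this contrast. In bulk RNA of sorted cells, fewer cells of a kind and less RNA per cell cannot be told apart either.

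Blood ST2+ libraries held 1807002 to 2249479 counts and lungs ST2+ libraries 1524842 to 2354863, so 1 count was worth 0.420 to 0.684 CPM (counts scaled to a column total, adjusted by TMM normalization, of 1000000). Counts of abundant short genes were compressed in these blood and lungs ST2+ libraries: no protein-coding gene went above 1.67 counts per exonic base in any of them, and Actb lay between 2005 and 2329 counts in all of them, so differences in such genes can be understated. The labels were checked against defining genes. Cd4 had 362 ± 58.7 CPM (SD, n = 4) in blood and 410.1 ± 59.0 CPM (SD, n = 5) in lungs (log2 fold change -0.18 ± 0.17 (SE), adjusted p = 0.59). Foxp3 had 128, 166, 143 and 143 CPM in blood and 198, 169, 192, 218 and 174 CPM in lungs (log2 fold change -0.39 ± 0.14 (SE), adjusted p = 0.0826), higher in each lungs library than in each blood library without passing the threshold. The summed level of 8 T cell markers was 3304 to 3666 CPM in blood and 3197 to 3680.5 CPM in lungs, and none of the 8 was called.

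Il1rl1, which encodes ST2, had 588, 549, 508 and 489 CPM in blood and 863, 896, 885, 959 and 752 CPM in lungs (log2 fold change -0.71 ± 0.40 (SE), adjusted p = 0.309). Its lungs libraries all lay above its blood libraries, and the difference missed the threshold in a fit whose spread came from all 14 groups, while it passed in a fit of the 9 members alone and in all 3 limma fits. In ST2- CD44hi Tregs the same gene had a mean of 5.93 CPM in blood and 4.91 CPM in lungs, so both ST2+ groups carried the message of their label. Cd44, the other marker of the gate, had 275 ± 17.0 CPM (SD, n = 4) in blood and 451 ± 104 CPM (SD, n = 5) in lungs (log2 fold change -0.71 ± 0.21 (SE), adjusted p = 0.0346), and its libraries overlapped. Its call was lost on leaving out any of 6 of the 9 libraries, with adjusted p from 0.0113 to 0.0988 and the highest without lungs mouse 3.

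Of 13173 protein-coding genes tested, 570 (4.33%) passed edgeR's quasi-likelihood test (adjusted p up to 0.05 by the Benjamini-Hochberg method, fold change 1.5 or more) and are termed called below. Of these, 184 were higher in blood (1.4% of genes tested) and 386 were higher in lungs (2.93%), and 2693 genes had an unadjusted p under 0.05. The median log2 fold change, written throughout as blood minus lungs, was 0 over all genes tested. With genes at 0 in 1 group set to a bound (3 counts per library there), the median was -1.59 for genes higher in lungs and 0.91 for genes higher in blood, and 150 against 29 differed by 4-fold or more. The libraries of both groups did not overlap for 300 of the genes higher in lungs and 136 of those higher in blood, where 7.91% of all genes tested did not overlap. Without the blood library of mouse 3, which held 55 cells, 369 genes were called, 95 higher in blood and 274 higher in lungs.

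**Figure D1:**
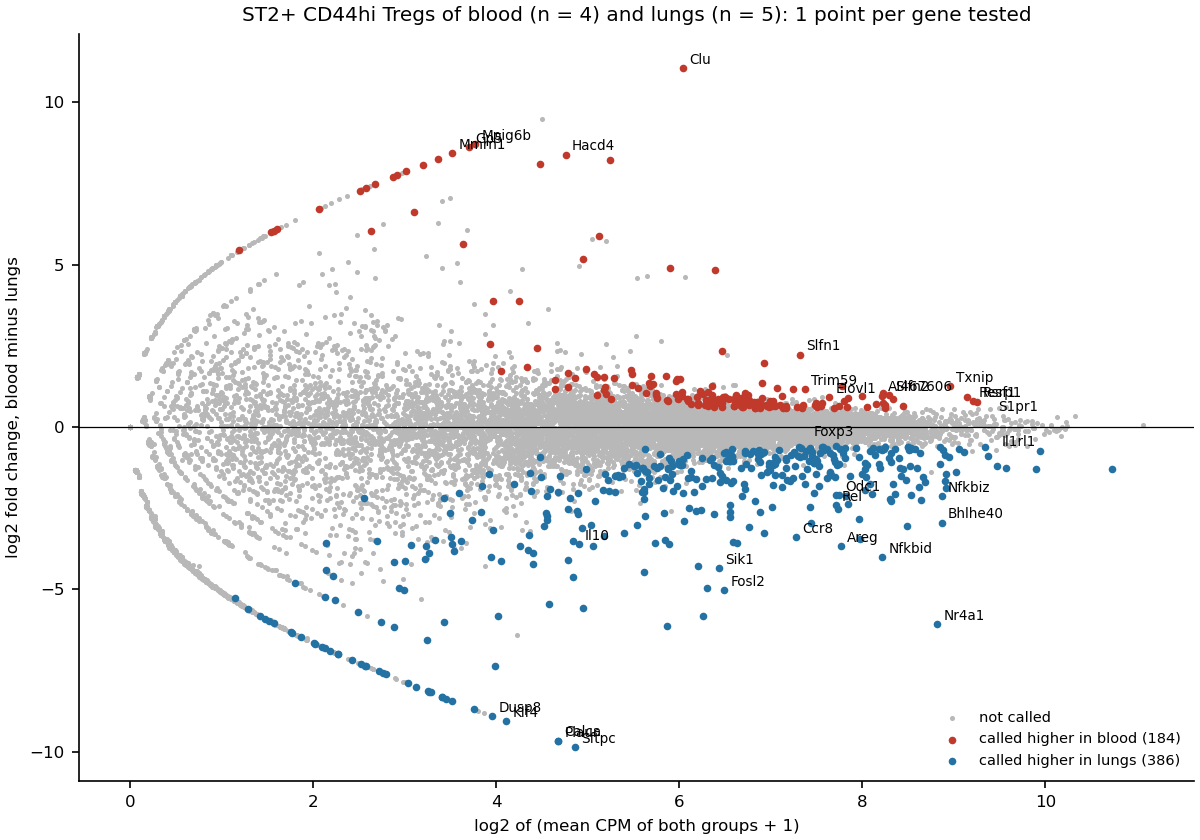
Each point is 1 of 13173 genes tested, with the log2 of the mean CPM of both groups plus 1 on the x axis and the fitted log2 fold change, blood minus lungs, on the y axis. The 184 genes called higher in blood (red) lie mostly nearer to 0, while the 386 called higher in lungs (blue) reach far below it, with Nr4a1 and Nr4a2 among them. Points on the outer arcs have no count in 1 group, and their fitted values are not measured folds.

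Immediate-early and AP-1 genes, which encode transcription factors and phosphatases that are switched on within minutes to hours of a stimulus, were the list with the most calls for its size. Of 25 members measured, 19 were higher in lungs and 0 higher in blood (median log2 fold change -1.93, or -1.69 with the 4 members at 0 in 1 group set to their bound), where 4.33% of all genes were called, and 13 to 21 were higher in lungs over 23 alternative settings. Nr4a1, an orphan nuclear receptor induced by antigen receptor signals, lay at chr15:101254269-101274795 in GRCm38. It had 20.2, 2.63, 17.99 and 12.5 CPM in blood and 929, 985, 928, 955 and 638 CPM in lungs. All lungs libraries lay far above all blood libraries, and the groups differed 67.2-fold (log2 fold change -6.07 ± 0.51 (SE), adjusted p = 1.84e-13).

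Its relatives moved the same way. Nr4a2 had 1.09, 0, 5.08 and 0 CPM in blood and 72.1, 150.4, 164, 116 and 61.7 CPM in lungs (log2 fold change -6.14 ± 0.74 (SE), adjusted p = 1e-08). Nr4a3 had 8.76, 8.78, 2.77 and 7.90 CPM in blood and 148, 137, 159, 159 and 88.1 CPM in lungs (log2 fold change -4.29 ± 0.50 (SE), adjusted p = 4e-09). For all 3 NR4A genes the lowest lungs library lay above the highest blood library. Fosl2, an AP-1 subunit, had 7.11, 7.90, 2.31 and 3.72 CPM in blood and 183, 112, 203, 231 and 134 CPM in lungs (log2 fold change -5.03 ± 0.49 (SE), adjusted p = 2.12e-11). Atf3, a stress-induced factor of the ATF family, had 10.4, 0.439, 0.461 and 0 CPM in blood and 106, 166, 90.2, 214 and 166 CPM in lungs (log2 fold change -5.82 ± 0.72 (SE), adjusted p = 1.92e-08), so that 1 blood library held nearly all of its blood counts. Ier5, an immediate-early response gene, differed less, with 135 ± 43.5 CPM (SD, n = 4) in blood and 391 ± 41.1 CPM (SD, n = 5) in lungs (log2 fold change -1.53 ± 0.19 (SE), adjusted p = 2.68e-08). Klf4, a Kruppel-like factor also on the list, was at 0 in every blood library and had 27.5, 19.99, 16.8, 75.3 and 22.7 CPM in lungs, at least 22.6-fold higher against a floor of 3 counts per library (adjusted p = 4.7e-08).

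Sik1, a salt-inducible kinase whose gene responds to cAMP, had 10.9, 3.51, 11.1 and 6.51 CPM in blood and 206, 211, 155, 141 and 99.4 CPM in lungs (log2 fold change -4.35 ± 0.38 (SE), adjusted p = 3.12e-13). Odc1, the rate-limiting enzyme of polyamine synthesis, had 56.9, 103, 84.0 and 78.1 CPM in blood and 326, 355, 321, 439 and 298 CPM in lungs (log2 fold change -2.11 ± 0.18 (SE), adjusted p = 3.98e-13). Both separated the groups completely, and both kept their call in all 23 alternative settings, as did Nr4a1, Nr4a2, Nr4a3, Fosl2, Atf3, Ier5 and Klf4. Dusp8, a phosphatase of stress-activated kinases, was at 0 in every blood library and had 25.8, 37.0, 46.0, 27.4 and 9.23 CPM in lungs, at least 20.3-fold higher (adjusted p = 0.000166).

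The NF-kB list, which holds the subunits of this factor, its inhibitors and well known target genes, had 14 of 19 members higher in lungs, where 2.93% of all genes were, and 0 higher in blood (median log2 fold change -1.11). Over the alternatives 8 to 14 were higher in lungs. Nfkbid, a nuclear inhibitor-like protein of NF-kB, had the smallest adjusted p of the comparison. It had 50.3, 10.1, 47.1 and 31.6 CPM in blood and 497, 578, 547, 727 and 441 CPM in lungs, 16.1-fold apart (log2 fold change -4.01 ± 0.28 (SE), adjusted p = 1.73e-16). Nfkbiz, a related nuclear regulator, had 157, 279, 137 and 124 CPM in blood and 788, 833, 729, 780.2 and 652 CPM in lungs (log2 fold change -2.11 ± 0.21 (SE), adjusted p = 2.12e-11). Rel, a subunit of NF-kB, had 94.7, 49.6, 50.8 and 69.2 CPM in blood and 304, 412, 412, 368 and 258 CPM in lungs (log2 fold change -2.41 ± 0.24 (SE), adjusted p = 2.12e-11). Each lungs library was above each blood library for these 3 genes.

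Among targets and adaptors of the list, Map3k8, a kinase upstream of ERK, had 26.1 ± 14.8 CPM (SD, n = 4) in blood and 160.3 ± 18.03 CPM (SD, n = 5) in lungs (log2 fold change -2.62 ± 0.34 (SE), adjusted p = 7.36e-08). Traf1, an adaptor of TNF receptors, had 449 ± 66.2 CPM (SD, n = 4) in blood and 1067 ± 61.5 CPM (SD, n = 5) in lungs (log2 fold change -1.25 ± 0.13 (SE), adjusted p = 2.86e-10). Birc3, an inhibitor of cell death bound to those adaptors, had 203 ± 60.7 CPM (SD, n = 4) in blood and 494 ± 85.0 CPM (SD, n = 5) in lungs (log2 fold change -1.28 ± 0.15 (SE), adjusted p = 4e-09). Traf1 and Birc3 were well expressed in blood too and differed by smaller folds than Nfkbid and Rel.

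Promoter sequence of 4 genes higher in lungs is shown, chosen because their upstream stretches hold motifs of factors on the lists. The stretches of Nr4a1, Nr4a2, Nr4a3, Atf3, Klf4, Ier5, Odc1, Traf1 and Birc3, also higher in lungs, hold no match. The stretches are the 250 bases before a RefSeq start in GRCm38.p6, written 5′ to 3′ along the gene. Capitals mark matches to a cAMP response element (CRE, TGACGTCA), AP-1 (TGANTCA) or NF-kB (GGGNNNTTCC) on either strand. The Nfkbid stretch belongs to 1 of its 3 listed starts and that of Tnfrsf9 to 1 of 2, and the other listed starts of both genes hold no match.
Nfkbid, chr7:30422156-30422405, plus strand: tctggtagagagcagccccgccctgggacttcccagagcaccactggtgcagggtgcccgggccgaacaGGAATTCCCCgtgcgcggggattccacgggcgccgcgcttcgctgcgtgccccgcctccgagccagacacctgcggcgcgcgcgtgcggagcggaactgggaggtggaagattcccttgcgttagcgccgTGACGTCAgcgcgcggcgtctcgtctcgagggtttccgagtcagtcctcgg
Rel, chr11:23770970-23771219, minus strand: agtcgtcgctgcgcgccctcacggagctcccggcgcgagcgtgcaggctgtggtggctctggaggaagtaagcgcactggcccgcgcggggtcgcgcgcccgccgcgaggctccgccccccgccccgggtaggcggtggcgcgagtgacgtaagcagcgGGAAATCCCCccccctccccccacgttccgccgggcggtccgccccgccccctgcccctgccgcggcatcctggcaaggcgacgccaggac
Tnfrsf9, chr4:150927749-150927998, plus strand: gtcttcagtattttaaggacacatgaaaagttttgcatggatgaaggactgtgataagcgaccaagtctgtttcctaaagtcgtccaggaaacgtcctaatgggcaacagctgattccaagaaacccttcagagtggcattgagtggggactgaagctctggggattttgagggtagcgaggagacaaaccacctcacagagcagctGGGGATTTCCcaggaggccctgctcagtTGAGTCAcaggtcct
Areg, chr5:91139349-91139598, plus strand: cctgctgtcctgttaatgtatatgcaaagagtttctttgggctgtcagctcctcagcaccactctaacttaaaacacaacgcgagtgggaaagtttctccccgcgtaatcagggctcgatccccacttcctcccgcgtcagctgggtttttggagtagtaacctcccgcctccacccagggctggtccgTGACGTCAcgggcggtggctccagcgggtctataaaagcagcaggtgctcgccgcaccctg

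Over the whole window of 250 bases before to 50 after a start, the NF-kB motif stood in 11.4% of 378 promoters of genes higher in lungs, 6.25% of 176 promoters of genes higher in blood, 6.27% of 13238 promoters of all genes tested and 5.56% of all 32851 promoters in the table. Promoters of the NF-kB list held it in 52.4% of 21. The CRE stood in 5.29% of promoters of genes higher in lungs, in none of the 176 of genes higher in blood, and in 2.95% of those of all genes tested. The AP-1 motif was about as common in both directions, at 7.94% for genes higher in lungs and 7.95% for genes higher in blood, against 5.2% of all genes tested, and it stood in none of the 24 promoters of the immediate-early list. These are counts of letters in a window, not of bound sites.

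Of 32 members of the tissue Treg list, which holds genes known from Tregs of nonlymphoid tissues, 15 were higher in lungs, where 2.93% of all genes were, and 0 higher in blood (median log2 fold change -0.81). Over the alternatives 10 to 17 were higher in lungs. Areg, which encodes amphiregulin, a growth factor that Tregs use in tissue repair, had 13.7, 23.3, 12.5 and 75.3 CPM in blood and 355, 376, 385, 558 and 333 CPM in lungs (log2 fold change -3.68 ± 0.38 (SE), adjusted p = 1.34e-10). Its highest blood library, mouse 5, stayed far below the lowest lungs library. Bhlhe40, a transcription factor that restrains IL-10, had 79.9, 67.6, 117 and 164 CPM in blood and 632, 992, 763, 1034 and 699 CPM in lungs (log2 fold change -2.94 ± 0.28 (SE), adjusted p = 1.34e-11). Gadd45b, a stress sensor, had 69.5, 17.1, 33.2 and 48.8 CPM in blood and 441, 455, 429, 617 and 356 CPM in lungs (log2 fold change -3.45 ± 0.36 (SE), adjusted p = 1.15e-10). Crem, a factor that binds cAMP response elements, had 128, 74.1, 102 and 118 CPM in blood and 381, 504, 424, 549 and 360.0 CPM in lungs (log2 fold change -2.07 ± 0.27 (SE), adjusted p = 8.38e-08).

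Among 22 measured effector molecules, 5 were higher in lungs, where 2.93% of all genes were, and 0 higher in blood (median log2 fold change -0.45, or -0.38 with the 3 members at 0 in 1 group set to their bound). Over the alternatives 2 to 7 were higher in lungs. Without blood mouse 5 the median was -1.96, with 5 higher in lungs. Il10, the anti-inflammatory cytokine, had 8.76, 0.878, 3.23 and 5.11 CPM in blood and 46.3, 35.5, 116, 33.5 and 35.2 CPM in lungs (log2 fold change -3.61 ± 0.51 (SE), adjusted p = 6.74e-07), with the lungs library of mouse 3 far above the other lungs libraries. Fgl2, a secreted molecule through which Tregs suppress, had 114, 62.7, 88.1 and 71.1 CPM in blood and 269, 545, 367, 348 and 302 CPM in lungs (log2 fold change -2.13 ± 0.37 (SE), adjusted p = 4.73e-05). Tnf had 5.85 ± 5.55 CPM (SD, n = 4) in blood and 39.1 ± 11.7 CPM (SD, n = 5) in lungs (log2 fold change -2.73 ± 0.64 (SE), adjusted p = 0.00498) and Ifng had 1.67 ± 2.11 CPM (SD, n = 4) in blood and 29.4 ± 17.3 CPM (SD, n = 5) in lungs (log2 fold change -4.14 ± 1.18 (SE), adjusted p = 0.0258). The Ifng call was lost without the lungs library of mouse 2 or the blood library of mouse 3 or 5, with adjusted p from 0.023 to 0.0928 over the 9 libraries left out in turn.

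Of 18 members of the TNF receptor and ligand list, whose signals help to sustain and expand Tregs, 5 were higher in lungs and 1 was higher in blood, where 2.93% and 1.4% of all genes were (median log2 fold change -0.95, or -0.46 with the 2 members at 0 in 1 group set to their bound). Without blood mouse 3, 3 were higher in lungs and 0 higher in blood. Without lungs mouse 3 the median was -0.49. Tnfrsf1b, the TNF receptor 2 that sustains Tregs, had 143, 79.0, 229.8 and 105 CPM in blood and 526, 741, 608, 571 and 548 CPM in lungs (log2 fold change -2.11 ± 0.29 (SE), adjusted p = 2.42e-07). Tnfrsf9, the costimulatory receptor 4-1BB, had 37.2, 135, 79.4 and 22.3 CPM in blood and 279, 367, 244, 260.1 and 269 CPM in lungs (log2 fold change -2.04 ± 0.31 (SE), adjusted p = 2.38e-06). Tnfrsf4, which encodes OX40, was already high in blood with 515 ± 58.8 CPM (SD, n = 4) in blood and 783 ± 120.5 CPM (SD, n = 5) in lungs (log2 fold change -0.60 ± 0.13 (SE), adjusted p = 0.00257), and its call was lost without the lungs or the blood library of mouse 4, where the fold fell under 1.5.

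The ligand genes Tnfsf8, with 109.7 ± 28.9 CPM (SD, n = 4) in blood and 289 ± 113 CPM (SD, n = 5) in lungs (log2 fold change -1.40 ± 0.38 (SE), adjusted p = 0.0175), and Tnfsf11, with 28.6 ± 15.6 CPM (SD, n = 4) in blood and 88.6 ± 24.5 CPM (SD, n = 5) in lungs (log2 fold change -1.63 ± 0.45 (SE), adjusted p = 0.0198), each lost their call on leaving out any of 3 libraries, with adjusted p up to 0.0767 without lungs mouse 4 and 0.096 without blood mouse 5. Tnfrsf26, a decoy receptor, was the member higher in blood, with 106 ± 20.5 CPM (SD, n = 4) in blood and 50.4 ± 11.4 CPM (SD, n = 5) in lungs (log2 fold change 1.08 ± 0.32 (SE), adjusted p = 0.035). That call was lost without any of 6 of the 9 libraries, with adjusted p from 0.0371 to 0.104.

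Of 29 cytokine receptors, 5 were higher in lungs, where 2.93% of all genes were, and 0 higher in blood (median log2 fold change -0.37). Over the alternatives 1 to 8 were higher in lungs, with 8 without blood mouse 3 and 3 without blood mouse 5. Il4ra, the receptor chain for IL-4 and IL-13, had 62.9, 198, 115 and 104 CPM in blood and 403, 386, 373, 284 and 274 CPM in lungs (log2 fold change -1.52 ± 0.29 (SE), adjusted p = 0.000257). Ifnar1, a chain of the type I interferon receptor, had 366, 322, 299 and 169 CPM in blood and 593, 723, 659.6, 654 and 532 CPM in lungs (log2 fold change -1.13 ± 0.20 (SE), adjusted p = 8.07e-05). Il10ra had 199.7 ± 61.1 CPM (SD, n = 4) in blood and 481 ± 66.1 CPM (SD, n = 5) in lungs (log2 fold change -1.27 ± 0.29 (SE), adjusted p = 0.00403). For these 3 receptors the groups did not overlap. Il6st, the shared signalling chain of the IL-6 family, had 75.1 ± 22.7 CPM (SD, n = 4) in blood and 158 ± 34.6 CPM (SD, n = 5) in lungs (log2 fold change -1.08 ± 0.28 (SE), adjusted p = 0.0109), and its adjusted p was 0.057 without blood mouse 5 in a range from 0.00384 to 0.057. Il21r had 205 ± 97.3 CPM (SD, n = 4) in blood and 338 ± 87.1 CPM (SD, n = 5) in lungs (log2 fold change -0.72 ± 0.21 (SE), adjusted p = 0.03), with overlapping libraries and adjusted p from 0.00127 to 0.167 on leaving out 1 library at a time, the highest without blood mouse 2.

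Of 15 measured chemokine receptors, 4 were higher in lungs, where 2.93% of all genes were, and 0 higher in blood (median log2 fold change -0.48, or -0.38 with the 2 members at 0 in 1 group set to their bound). Only 2 were higher in lungs without lungs mouse 2, blood mouse 2 or blood mouse 3. The median was -0.73 without blood mouse 4. Ccr8, a receptor of tissue Tregs, had 21.9, 2.63, 24.0 and 58.1 CPM in blood and 266, 309.8, 312, 302 and 219 CPM in lungs (log2 fold change -3.40 ± 0.37 (SE), adjusted p = 3.82e-10). Cxcr4, which binds CXCL12 and holds cells in marrow and tissues, had 54.7, 61.9, 59.5 and 55.3 CPM in blood and 203, 201, 211, 187 and 201 CPM in lungs (log2 fold change -1.79 ± 0.30 (SE), adjusted p = 1.77e-05). Within each group the Cxcr4 libraries were close to each other, and the groups were 3.46-fold apart. Cxcr5, the follicular homing receptor, was at 0 in every blood library and had 0.873, 5.997, 0.442, 4.79 and 0 CPM in lungs (adjusted p = 0.0456), 1 of them at 0 as well, and its call was lost without any of 6 libraries.

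The following chemokine receptors did not pass. Ccr1 had 4.79 ± 5.56 CPM (SD, n = 4) in blood and 27.7 ± 11.9 CPM (SD, n = 5) in lungs (log2 fold change -2.50 ± 0.84 (SE), adjusted p = 0.0703), and with mouse as a block in the same test its adjusted p was 0.0429, so it was called there. Ccr2, a receptor for monocyte chemoattractants, had 752, 725, 756 and 669 CPM in blood and 383, 544, 581, 508 and 476 CPM in lungs (log2 fold change 0.54 ± 0.44 (SE), adjusted p = 0.521), with each blood library above each lungs library. Ccr3, the eotaxin receptor, had 167, 52.7, 147 and 192 CPM in blood and 66.8, 67.5, 69.4, 84.9 and 101 CPM in lungs (log2 fold change 0.84 ± 0.67 (SE), adjusted p = 0.516), where the blood library of mouse 3 lay below the lungs libraries and the other 3 above them. Ccr4 and Cxcr6, receptors of skin-homing and tissue T cells, had 152 ± 19.96 CPM (SD, n = 4) in blood and 197 ± 20.5 CPM (SD, n = 5) in lungs and 280.4 ± 69.5 CPM (SD, n = 4) in blood and 390.2 ± 60.9 CPM (SD, n = 5) in lungs respectively, with adjusted p of 0.637 and 0.613. Cxcr3 had 353 ± 48.1 CPM (SD, n = 4) in blood and 234 ± 58.9 CPM (SD, n = 5) in lungs (log2 fold change 0.59 ± 0.41 (SE), adjusted p = 0.441). Ccr6 had 160.4 ± 49.2 CPM (SD, n = 4) in blood and 154 ± 41.3 CPM (SD, n = 5) in lungs (log2 fold change 0.06 ± 0.53 (SE), adjusted p = 1).

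Ccr10 spread widely, from 19.2 to 214 CPM in blood and 5.50 to 101 CPM in lungs, and Ccr9 was low, from 0 to 13.4 CPM in blood and 0 to 15.7 CPM in lungs, with adjusted p of 0.763 and 0.985. Cx3cr1 was at 0 in all libraries but 1, the lungs library of mouse 2 with 0.999 CPM. Cxcr2 was under the level needed for testing. Of 17 integrin genes, 2 were higher in lungs, or 1 without blood mouse 2 or 5, where 2.93% of all genes were higher in lungs. Itgav, the alpha V chain, had 114, 68.4, 119.5 and 145 CPM in blood and 480.4, 526, 489, 609 and 486 CPM in lungs (log2 fold change -2.21 ± 0.33 (SE), adjusted p = 2.33e-06). Itgb8, its partner in the integrin that activates TGF-beta, had 7.91 ± 5.45 CPM (SD, n = 4) in blood and 26.6 ± 5.97 CPM (SD, n = 5) in lungs (log2 fold change -1.74 ± 0.46 (SE), adjusted p = 0.014), and its adjusted p was 0.0806 without blood mouse 5 in a range from 0.00871 to 0.0806.

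Of 12 measured genes of recirculation, which hold the exit receptors, their regulators, homing receptors and integrins, 2 were higher in blood and 0 higher in lungs (median log2 fold change 0.31), where 1.4% of all genes were higher in blood. Over the alternatives 0 to 3 were higher in blood and 0 to 1 higher in lungs. Klf2, the factor that drives S1pr1, had 309.7, 390.5, 333 and 367 CPM in blood and 227, 227, 213, 212 and 193 CPM in lungs (log2 fold change 0.71 ± 0.18 (SE), adjusted p = 0.00804). Klf3, a related repressor, had 732, 713, 784 and 715 CPM in blood and 404, 356, 362, 324 and 501 CPM in lungs (log2 fold change 0.92 ± 0.23 (SE), adjusted p = 0.00751). Both kept their call in 22 of 23 alternative settings, and lost it where the test was set against 1.5-fold instead of no change.

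S1pr1 had 821, 794, 769.6 and 678 CPM in blood and 649, 615, 567, 556 and 608 CPM in lungs (log2 fold change 0.35 ± 0.20 (SE), adjusted p = 0.312). Each blood library lay above each lungs library, but the difference was 1.28-fold and did not pass in any setting. S1pr4, a relative, had 110.0, 190.4, 113 and 133 CPM in blood and 101, 92.5, 81.8, 51.3 and 83.1 CPM in lungs (log2 fold change 0.74 ± 0.32 (SE), adjusted p = 0.172), and Itgb1, the beta 1 integrin chain, had 1529.5, 1341, 1496 and 1336 CPM in blood and 1007, 1157, 1147, 1227 and 1145 CPM in lungs (log2 fold change 0.33 ± 0.21 (SE), adjusted p = 0.397). Both were likewise separate in their libraries without passing, though S1pr4 was called in the fit of all 70 libraries. Ccr7, the receptor that leads T cells into lymph nodes, went the other way with 282, 347, 275 and 51.1 CPM in blood and 653, 589, 502, 777 and 587 CPM in lungs (log2 fold change -1.38 ± 0.45 (SE), adjusted p = 0.0624). Its lungs libraries all exceeded its blood libraries, blood mouse 5 was far below the other blood libraries, and it was called in DESeq2, in all 3 limma fits and under a stricter filter on low counts.

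The libraries of blood and lungs overlapped for Selplg, the ligand of P-selectin (949 ± 85.4 CPM (SD, n = 4) in blood and 833 ± 67.4 CPM (SD, n = 5) in lungs, adjusted p = 0.233), for Itgal (289 ± 72.0 CPM (SD, n = 4) in blood and 381 ± 82.5 CPM (SD, n = 5) in lungs, adjusted p = 0.25) and for Itga4 (731 ± 133 CPM (SD, n = 4) in blood and 573 ± 67.1 CPM (SD, n = 5) in lungs, adjusted p = 0.464). Itgb7, the partner of Itga4 in gut homing, had 995 ± 42.0 CPM (SD, n = 4) in blood and 1062 ± 50.6 CPM (SD, n = 5) in lungs (adjusted p = 0.659), and Gpr183, a receptor for oxysterols, had 267 ± 44.9 CPM (SD, n = 4) in blood and 253 ± 44.7 CPM (SD, n = 5) in lungs (adjusted p = 0.922).

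Genes higher in blood differed by smaller folds in the median than genes higher in lungs. Txnip, the thioredoxin-interacting protein that limits glucose uptake, had the smallest adjusted p of this direction. It lay at chr3:96557957-96561883 and had 818, 613, 731 and 639.9 CPM in blood and 294, 238.9, 261, 296 and 368 CPM in lungs, 2.403-fold apart (log2 fold change 1.26 ± 0.16 (SE), adjusted p = 4.49e-08). Slfn1, a Schlafen gene tied to T cell quiescence, had 313, 219.8, 227 and 283 CPM in blood and 46.3, 75.5, 62.3, 56.8 and 36.9 CPM in lungs (log2 fold change 2.23 ± 0.29 (SE), adjusted p = 4.74e-08). Slfn2, its neighbour in the Schlafen family, had 491, 408, 383 and 375 CPM in blood and 193, 243, 171, 207 and 230.4 CPM in lungs (log2 fold change 0.99 ± 0.16 (SE), adjusted p = 1.58e-05). For all 3 the groups were separate.

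Trim59, a ubiquitin ligase of the TRIM family, had 275, 229, 179 and 230.5 CPM in blood and 63.8, 144, 102, 91.02 and 103 CPM in lungs (log2 fold change 1.18 ± 0.19 (SE), adjusted p = 1.12e-05). Resf1, a factor in the silencing of retroelements, had 750.4 ± 96.7 CPM (SD, n = 4) in blood and 430.5 ± 74.4 CPM (SD, n = 5) in lungs (log2 fold change 0.80 ± 0.14 (SE), adjusted p = 4.15e-05). Elovl1, an enzyme that lengthens fatty acids, had 259 ± 26.9 CPM (SD, n = 4) in blood and 136 ± 28.3 CPM (SD, n = 5) in lungs (log2 fold change 0.93 ± 0.16 (SE), adjusted p = 3.02e-05). Rsrp1 had 769 ± 91.3 CPM (SD, n = 4) in blood and 446 ± 20.3 CPM (SD, n = 5) in lungs (log2 fold change 0.79 ± 0.13 (SE), adjusted p = 9.17e-06), and AI467606 had 391 ± 53.9 CPM (SD, n = 4) in blood and 199.7 ± 42.7 CPM (SD, n = 5) in lungs (log2 fold change 0.97 ± 0.15 (SE), adjusted p = 4.17e-06). These 8 genes had no overlap between groups, and those other than Txnip, Slfn1 and Trim59 lost their call only in the test against 1.5-fold.

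Of 23 interferon-stimulated genes, 3 were higher in blood, where 1.4% of all genes were, and 0 higher in lungs (median log2 fold change 0.45). Over the alternatives 0 to 4 were higher in blood. Without blood mouse 2, 1 was higher in blood and 1 higher in lungs (median 0.29). Ifi47 and Irgm1 encode GTPases that interferon gamma induces. Ifi47 had 552, 321, 355 and 391 CPM in blood and 154, 252, 154, 214 and 198 CPM in lungs (log2 fold change 1.06 ± 0.19 (SE), adjusted p = 9.63e-05). Irgm1 had 460.2, 187, 264 and 325 CPM in blood and 115, 165, 150.3, 107 and 105 CPM in lungs (log2 fold change 1.26 ± 0.31 (SE), adjusted p = 0.00751), and its adjusted p was 0.0828 without blood mouse 2, the highest of a range from 0.00442 to 0.0828. Blood mouse 2 was the highest library for all 3 genes. Ifit3, an RNA-binding antiviral protein, had 85.9, 17.99, 5.08 and 27.0 CPM in blood and 0, 1.499, 4.42, 0 and 5.04 CPM in lungs (log2 fold change 3.87 ± 1.18 (SE), adjusted p = 0.041), and was not called with mouse as a block (adjusted p = 0.0718) or without any of 7 of the 9 libraries, up to 0.21 without blood mouse 2. It has a near-identical neighbouring copy, so the split of its reads is uncertain.

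The upstream stretches of Irgm1 and Ifit3 are shown because an interferon response element (ISRE, GAAANNGAAA on either strand) stands in each of them 2 times. That of Ifi47 holds no match to any motif searched. Capitals mark the ISRE or AP-1 matches, and the 2 ISRE matches of Irgm1 share 4 bases.
Irgm1, chr11:48871421-48871670, minus strand: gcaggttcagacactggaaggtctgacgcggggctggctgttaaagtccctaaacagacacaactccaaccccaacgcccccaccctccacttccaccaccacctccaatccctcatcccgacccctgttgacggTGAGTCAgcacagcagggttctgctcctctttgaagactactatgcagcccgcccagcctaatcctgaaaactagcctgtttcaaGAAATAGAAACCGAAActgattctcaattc
Ifit3, chr19:34583279-34583528, plus strand: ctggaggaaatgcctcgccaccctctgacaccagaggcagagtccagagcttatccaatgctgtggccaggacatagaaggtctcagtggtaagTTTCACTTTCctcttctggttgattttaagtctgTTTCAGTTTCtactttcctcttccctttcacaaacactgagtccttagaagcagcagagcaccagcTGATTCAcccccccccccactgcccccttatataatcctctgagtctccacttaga

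The ISRE stood in 10.2% of 176 promoters of genes higher in blood, 2.65% of 378 of genes higher in lungs, 3.26% of those of all genes tested and 54.5% of 22 of the interferon list. Promoters were found for 150 of the 184 genes higher in blood, 295 of the 386 higher in lungs and 10360 of the genes tested.

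**Figure D2:**
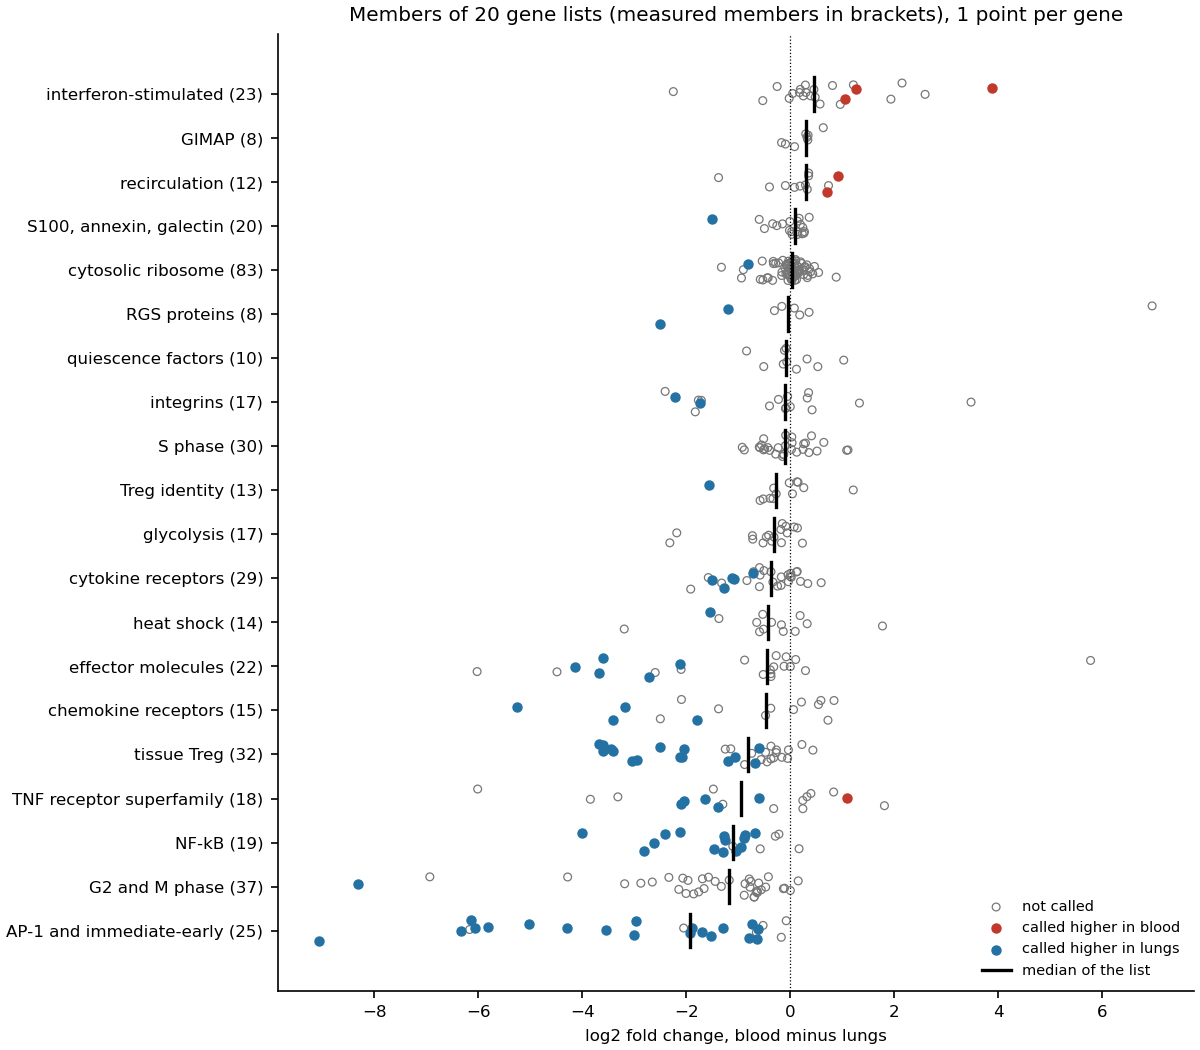
Each row is 1 of 20 gene lists, ordered by the median log2 fold change of its measured members, blood minus lungs, which is on the x axis. Filled points are genes called higher in blood (red) or lungs (blue), open points were not called and black bars are medians, with genes at 0 in 1 group at their fitted values, which are not measured folds. The immediate-early list has 19 of 25 members called higher in lungs and the NF-kB list 14 of 19, while the interferon-stimulated list has 3 of 23 called higher in blood.

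Some called genes are known from other cell types. In blood, Clu, Mpig6b, Gp5, Mmrn1 and Hacd4 had the largest fitted folds among called genes of at least 20 CPM, and 4 of them were at 0 in lungs, where a fold is only a bound. Clu, which encodes clusterin and is stored in platelets, had 42.7, 226, 113 and 139 CPM in blood and 0 in every lungs library, at least 87.4-fold higher against 3 counts per library (adjusted p = 0.0164). Mpig6b and Gp5, which encode platelet receptors, and Mmrn1, which encodes a protein of platelet granules, were also at 0 in each lungs library. Mpig6b had 4.93, 61.9, 23.1 and 11.2 CPM in blood, at least 17.0-fold higher (adjusted p = 0.0333). Gp5 had 3.28, 60.1, 32.3 and 0.465 CPM, at least 16.1-fold higher (adjusted p = 0.0458), and Mmrn1 had 0.547, 55.3, 6.92 and 20.9 CPM, at least 14.04-fold higher (adjusted p = 0.0206). Hacd4, an enzyme of fatty acid elongation, had 19.7, 129, 59.5 and 0.465 CPM in blood and 1 count in 1 lungs library.

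The blood library of mouse 3, with the fewest cells, was highest for all 5 genes. Without it the adjusted p of Mmrn1 was 0.0629, that of Mpig6b 0.0814 and that of Gp5 0.105, each the highest of the 9 libraries left out in turn, in ranges from 0.0215 to 0.0629, 0.0387 to 0.0814 and 0.0483 to 0.105. Mpig6b and Gp5 also lost their call without most other libraries. The summed level of 6 platelet markers was 228 to 783 CPM in blood and 0 to 76.0 CPM in lungs, with blood mouse 3 highest, and Pf4 and Ppbp were called. The summed level of 6 erythroid markers was 13.1 to 417 CPM in blood and 0 to 18.1 CPM in lungs, where Hbb-bs and Hbb-bt were called and lay at 135 and 98.3 CPM in blood mouse 4. These globin genes are near-identical copies, so how their reads were split between them is uncertain. The summed myeloid markers were 53.6 to 187 CPM in blood and 8.73 to 39.5 CPM in lungs. Lyz2, which was not called, gave most of the blood sum at 50.3, 135, 74.3 and 118 CPM, and Fcer1g was called. Of the 11 myeloid markers, 7 were at 0 in every blood library, among them Csf1r and Adgre1, which were at 0 in lungs too. Cd68, Tyrobp and Chil3 were at 0 in blood and present in some lungs libraries.

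In lungs, Sftpc, Plaur, Calca, Klf4 and Dusp8 had the largest fitted folds, and all 5 were at 0 in blood, so that their folds are bounds that lie below the measured fold of Nr4a1. Sftpc, a surfactant protein of alveolar type 2 cells, was at 0 in each blood library and had 75.6, 77.5, 13.7, 36.3 and 76.8 CPM in lungs, at least 39.0-fold higher (adjusted p = 5.99e-05). The summed level of 8 lung epithelial markers was 14.2 to 46.1 CPM in blood and 151 to 189 CPM in lungs, with Sftpc and Scgb1a1 called, and 6 of the 8 at 0 in every blood library, where Epcam, at 14.2 to 44.3 CPM, gave nearly the whole sum. Plaur, the urokinase receptor, had 78.6, 26.5, 78.3, 40.4 and 22.2 CPM and Calca, which encodes calcitonin and CGRP, 4.37, 35.0, 80.5, 82.1 and 43.2 CPM, both 0 in each blood library (at least 34.3-fold and at least 34.2-fold higher, adjusted p = 0.000794 and 3.58e-05). Calca was also present in ST2+ Tregs of VAT, colon and skin, at 64.5, 92.6 and 148 CPM, where Sftpc had 0.362, 0 and 0.133 CPM.

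Markers of B cells summed to 56.3 to 183 CPM in blood and 24.5 to 55.7 CPM in lungs. Those of CD8 T and NK cells summed to 13.2 to 39.9 CPM in blood and 23.0 to 53.1 CPM in lungs. Markers of endothelium and fibroblasts summed to 165 to 229 CPM in blood and 121 to 286 CPM in lungs, and those of basophils and mast cells to 0 to 3.95 CPM in blood and 0 to 0.4997 CPM in lungs. Pecam1 gave nearly the whole endothelial and fibroblast sum in blood, where Cdh5, Cldn5, Ramp2, Kdr and Col3a1 were at 0 in every library. In lungs mouse 3, Cldn5, Ramp2 and Kdr had 48.6, 50.4 and 20.8 CPM, and they were lower or at 0 in the other lungs libraries. None of the genes on these 4 lists was called. The summed platelet, myeloid and B cell markers were higher in each blood library than in any lungs library, the epithelial markers were higher in each lungs library, and the erythroid sums overlapped. Their part in the other differences was not tested.

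**Figure D3:**
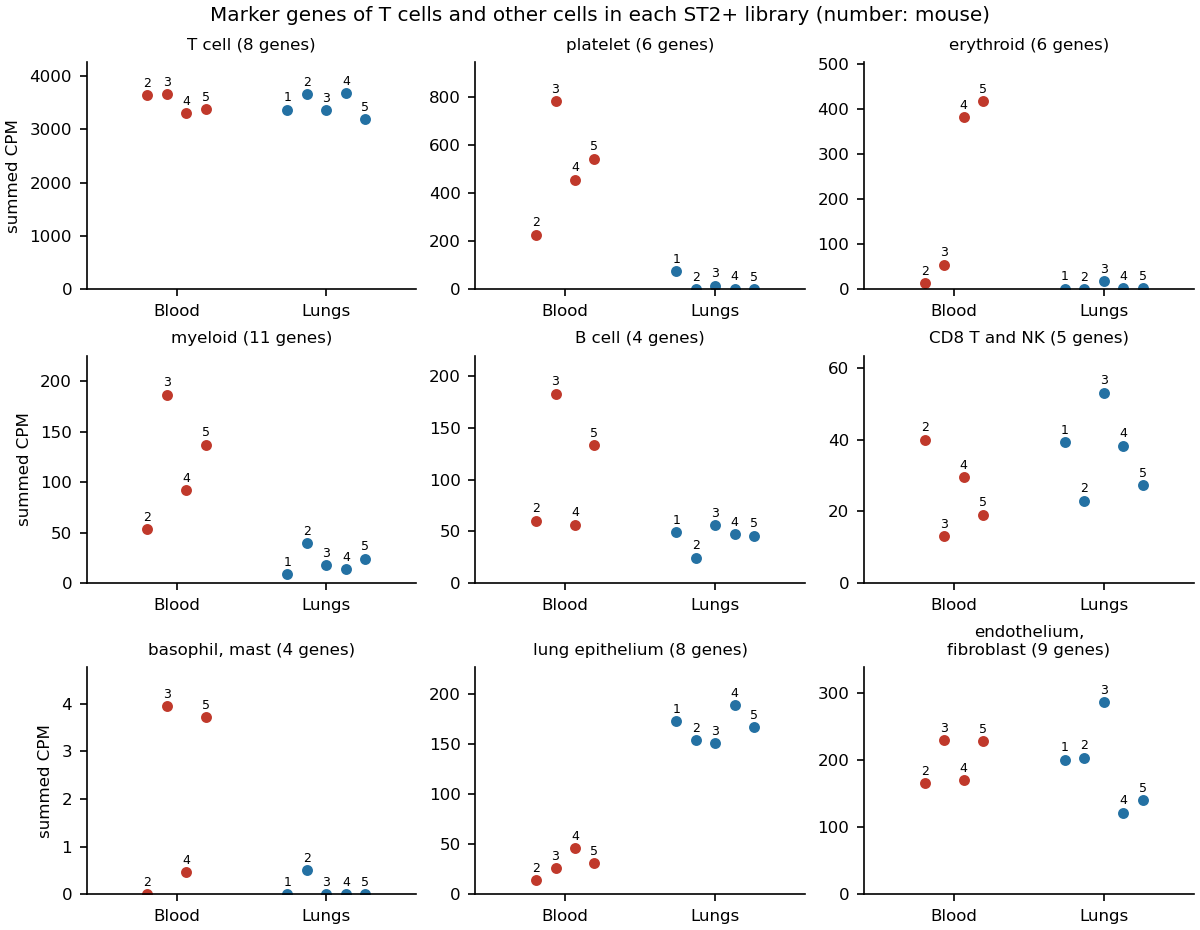
Summed CPM of marker genes of T cells and 8 other kinds of cell in each ST2+ library, with blood in red, lungs in blue and the number of the mouse above each point. T cell markers overlap between the groups, platelet markers are higher in each of the 4 blood libraries than in any of the 5 lungs libraries, and lung epithelial markers are higher in each lungs library.

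Several gene groups showed little or no difference, where 4.33% of all genes were called. Of 13 Treg identity genes, 1 was called, and 0 to 2 on leaving out 1 library, with 0 without blood mouse 4. It was Lrrc32, which encodes GARP, a carrier of latent TGF-beta, with 44.3, 135, 41.5 and 83.2 CPM in blood and 324, 285, 227, 151 and 143 CPM in lungs (log2 fold change -1.57 ± 0.42 (SE), adjusted p = 0.0166), and its call was lost without blood mouse 2 or blood mouse 4, with adjusted p from 0.00552 to 0.0705. Of 10 quiescence factors none was called (median log2 fold change -0.07, from -0.16 without blood mouse 3 to 0.02 without blood mouse 5), with Tcf7 at 288 ± 37.5 CPM (SD, n = 4) in blood and 302 ± 40.4 CPM (SD, n = 5) in lungs (adjusted p = 0.981) and Foxp1 at 275 ± 61.0 CPM (SD, n = 4) in blood and 291 ± 26.3 CPM (SD, n = 5) in lungs (adjusted p = 0.846). None of 17 glycolysis genes was called (median log2 fold change -0.31, or -0.18 with the 1 member at 0 in 1 group set to its bound), and 0 to 2 were over the alternatives, with 1 without blood mouse 4 or blood mouse 5. The median lay between -0.42 without blood mouse 5 and -0.15 without blood mouse 3, with Ldha at 504 ± 47.4 CPM (SD, n = 4) in blood and 535 ± 85.7 CPM (SD, n = 5) in lungs and Pfkp at 385 ± 39.4 CPM (SD, n = 4) in blood and 436 ± 37.4 CPM (SD, n = 5) in lungs. None of 8 GIMAP genes was called (median log2 fold change 0.31, and 0.21 without blood mouse 2), with Gimap3 at 953 ± 106 CPM (SD, n = 4) in blood and 900.2 ± 84.8 CPM (SD, n = 5) in lungs and Gimap4 at 831 ± 107 CPM (SD, n = 4) in blood and 658 ± 70.1 CPM (SD, n = 5) in lungs.

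Proliferation genes were measured in both groups. None of 30 S phase genes was called (median log2 fold change -0.11). That median lay above 0 without blood mouse 2, 3 or 4, at most 0.13, and at -1.24 without blood mouse 5, where 4 of the genes were higher in lungs. Examples are Mcm6 at 343 ± 172 CPM (SD, n = 4) in blood and 381 ± 86.5 CPM (SD, n = 5) in lungs and Mcm4 at 212 ± 86.8 CPM (SD, n = 4) in blood and 232 ± 62.9 CPM (SD, n = 5) in lungs. Of 37 G2 and M phase genes, 35 had a fold change below 0 and 1 was called (median log2 fold change -1.17), where 4.33% of all genes were called. Over the alternatives 0 to 6 were called, all higher in lungs, with 3 in DESeq2 and in voom with quality weights, 6 in voom without them, and 4 without blood mouse 5 (median -2.12). The called gene was Kif2c, a mitotic kinesin, at 0 in every blood library and 20.1, 25.5, 6.63, 30.8 and 13.01 CPM in lungs (adjusted p = 0.0394), a call lost without any of 7 of the 9 libraries. Mki67, which encodes the proliferation marker Ki-67, had 79.9, 59.7, 60.4 and 147 CPM in blood and 112, 193, 111, 172 and 156 CPM in lungs (log2 fold change -0.78 ± 0.64 (SE), adjusted p = 0.526), and its libraries overlapped, and it was called in no alternative setting.

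The counts of the next lists are to be read against the 4.33% of all genes called. Heat shock genes, which encode chaperones, had 1 of 14 called, or 0 to 3 on leaving out 1 library. It was 3 without lungs mouse 1, 2 without blood mouse 2, 4 or 5 and 0 without blood mouse 3. Dnajb4, a cochaperone, had 20.2 ± 14.1 CPM (SD, n = 4) in blood and 58.7 ± 27.6 CPM (SD, n = 5) in lungs (log2 fold change -1.55 ± 0.38 (SE), adjusted p = 0.00653), with overlapping libraries, and its adjusted p was 0.0503 without blood mouse 3 in a range from 0.00027 to 0.0503. Of 20 S100, annexin, galectin and cytoskeletal genes 1 was called: Lmna, which encodes lamins of the nuclear envelope, had 165, 160.1, 231 and 151 CPM in blood and 384, 543, 565, 617 and 419 CPM in lungs (log2 fold change -1.51 ± 0.42 (SE), adjusted p = 0.0186), with adjusted p from 0.0188 to 0.0627 on leaving out 1 library and the highest without blood mouse 3. Of 8 RGS genes, which damp G protein signals, 2 were higher in lungs, where 2.93% of all genes were. Rgs2 had 534, 377, 408 and 407 CPM in blood and 849.8, 999, 920.1, 1332 and 820.3 CPM in lungs (log2 fold change -1.19 ± 0.24 (SE), adjusted p = 0.000742). Rgs16 had 7.88 ± 10.7 CPM (SD, n = 4) in blood and 45.3 ± 36.7 CPM (SD, n = 5) in lungs (log2 fold change -2.51 ± 0.61 (SE), adjusted p = 0.00638), with adjusted p of 0.053 without lungs mouse 2 in a range from 4.94e-05 to 0.053. Of 83 cytosolic ribosomal genes 1 was called, Rpl3, with 39.5 ± 1.61 CPM (SD, n = 4) in blood and 69.5 ± 21.3 CPM (SD, n = 5) in lungs (log2 fold change -0.82 ± 0.19 (SE), adjusted p = 0.00457). Ribosomal protein genes have near-identical pseudogene copies, so the split of their reads is uncertain.

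ST2+ Tregs of the other 4 tissues were set beside blood and lungs, without a test, since the genes had been chosen for their difference between these 2 groups. Spleen was dissociated mechanically and enriched for CD4 cells, without enzymes. VAT and colon were digested at the same collagenase dose and for the same time as the lungs, the colon after EDTA and DTT steps. Skin was digested at a higher dose and for longer. Enrichment for CD4 cells before the sort is described for spleen and lungs only. Nr4a1 had 13.4 ± 7.85 CPM (SD, n = 4) in blood, 79.0 ± 51.7 CPM (n = 5) in spleen and 887 ± 141, 1040.5 ± 114, 816 ± 56.0 and 1037 ± 55.0 CPM in lungs, VAT, colon and skin, the colon with n = 3. Fosl2 had 2.42 CPM in spleen and 287, 167 and 359 CPM in VAT, colon and skin, and Areg 31.9 CPM in spleen and 614, 492 and 324 CPM in those tissues. For these genes blood and spleen were low, and lungs, VAT, colon and skin were high. Digestion and kind of tissue cannot be told apart here, and the part of either was not tested.

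Other genes higher in lungs had spleen means well above those of blood. Ccr8 had 189 ± 21.3 CPM in spleen beside 26.7 ± 23.1 CPM in blood and 282 ± 39.5 CPM in lungs. Tnfrsf9 had 439.7 ± 34.4 CPM in spleen, above its 284 ± 48.5 CPM in lungs, and Tnfrsf1b had 537 ± 84.5 CPM in spleen beside 599 ± 84.8 CPM in lungs. Nfkbid lay between, with 237 ± 34.9 CPM in spleen. Il10 was 42.9 ± 12.5 CPM in spleen, close to the lungs, and far higher in VAT and colon, at 473 and 485 CPM. On the log2 scale with a pseudocount of 1 CPM, the spleen mean was nearer to lungs than to blood for 161 of the 386 genes higher in lungs (41.7%), and the means of VAT, colon and skin were for 328, 330 and 347. Among the 184 genes higher in blood those counts were 86 for spleen and 149, 138 and 138 for the others.

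S1pr1, Slfn1 and Txnip had their highest mean in blood. S1pr1 had 766 ± 62.3 CPM in blood, 599 ± 37.6 CPM in lungs, 366 ± 56.4 CPM in spleen and 164 to 269 CPM in skin, VAT and colon, so the lungs were the tissue nearest to blood. Klf2 was as high in colon, at 329 ± 11.7 CPM, as in blood, at 350.0 ± 35.7 CPM. Slfn1 had means from 261 CPM in blood through 172 CPM in spleen and 55.6 CPM in lungs to 9.13 CPM in skin. Txnip had its lowest mean in lungs, and 429.8 to 550.3 CPM in the other 4 tissues. Il1rl1 had 273 ± 34.8 CPM in spleen, below blood, and 1456 ± 104 CPM in skin.

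**Figure D4:**
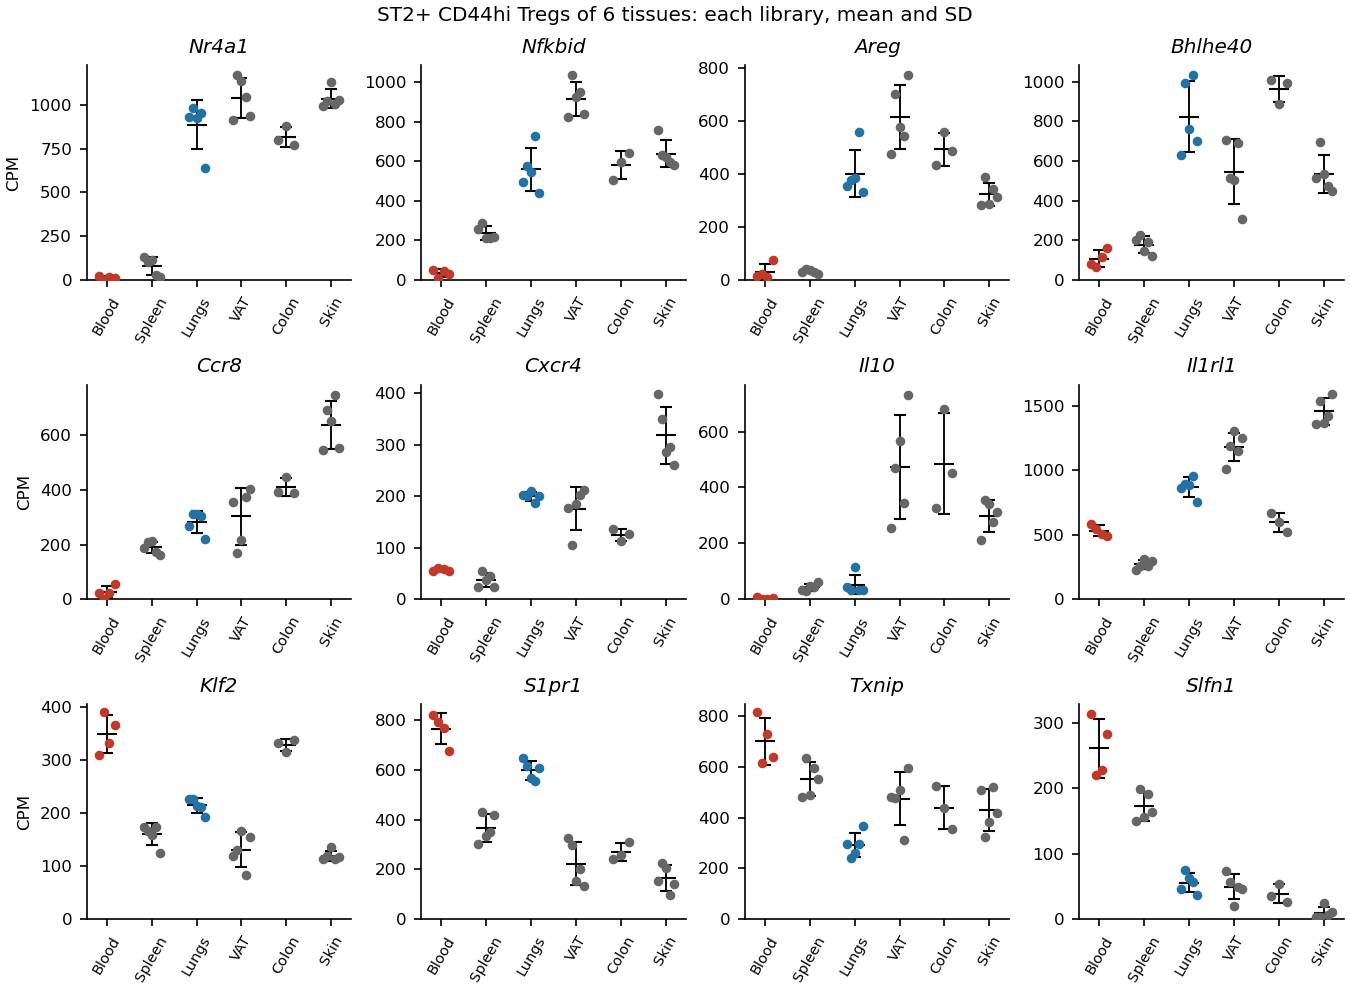
CPM of 12 genes (y axis, from 0) in each ST2+ CD44hi library of 6 tissues, with blood in red, lungs in blue, and the mean and SD in black. Nr4a1, Areg and Bhlhe40 are low in blood and spleen and high in the other tissues, Ccr8 is lowest in blood and above it in spleen, and S1pr1, Txnip and Slfn1 are highest in blood.

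The same contrast in ST2- CD44hi Tregs (5 blood and 5 lungs libraries of the same mice) called 411 of the genes tested (3.12%), 80 higher in blood and 331 higher in lungs. These are other libraries than the members, and 168 genes were called in the same direction in both, 29.5% of the ST2+ calls and 40.9% of the ST2- calls, and 0 in opposite directions. The immediate-early list had 15 of 25 members higher in lungs in ST2- cells (-1.67 median log2 fold change), the NF-kB list 10 of 19 (-0.77) and the tissue Treg list 21 of 32 (-1.49), with 0 members of these 3 lists higher in blood. Nr4a1 had 20.3 CPM in blood and 466 CPM in lungs there, Areg 2.54 and 159 CPM, and Txnip 1015 and 491 CPM.

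Whether the difference itself depended on ST2 was tested as an interaction, which called 4 genes (0.0304%), while 1316 had an unadjusted p under 0.05. With mouse as a block 7 were called, and the 4 were among them. Dusp6, a phosphatase that turns off ERK, had 13.7, 0.439, 11.1 and 0 CPM in blood and 48.9, 15.5, 90.6, 63.6 and 47.0 CPM in lungs in ST2+ cells and means of 44.7 and 30.1 CPM in ST2- cells (interaction -3.67 ± 0.72 log2, adjusted p = 0.0257). Il2ra, the alpha chain of the IL-2 receptor, had 245 ± 32.0 CPM (SD, n = 4) in blood and 309 ± 21.9 CPM (SD, n = 5) in lungs in ST2+ cells, and 463 CPM in blood against 253 CPM in lungs in ST2- cells (interaction -1.21 ± 0.23, adjusted p = 0.0257). In separate tests the adjusted p of Il2ra was 0.256 in ST2+ cells and 0.000151 in ST2- cells.

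Polr1a, the large subunit of RNA polymerase I, had 26.8, 41.2, 36.0 and 78.1 CPM in blood and 199.6, 137, 155, 65.0 and 89.8 CPM in lungs in ST2+ cells and 107 and 54.5 CPM in ST2- cells (interaction -2.47 ± 0.50, adjusted p = 0.0306). Sh3bgrl had 464 ± 62.1 CPM (SD, n = 4) in blood and 339 ± 48.2 CPM (SD, n = 5) in lungs in ST2+ cells and 215 and 324 CPM in ST2- cells (interaction 1.05 ± 0.22, adjusted p = 0.0432). The next genes did not pass: Nrip1, a nuclear receptor corepressor, differed 3.17-fold in ST2+ cells (log2 fold change -1.66 ± 0.23 (SE), adjusted p = 1.99e-07) and had 420.0 and 513 CPM in ST2- cells (interaction adjusted p = 0.0644), and Nfil3, a bZIP transcription factor, had 134 ± 20.6 CPM (SD, n = 4) in blood and 279.7 ± 22.6 CPM (SD, n = 5) in lungs in ST2+ cells (interaction adjusted p = 0.0755). The interaction called 0 genes without lungs mouse 3 or blood mouse 3, 1 without lungs mouse 2, 2 without lungs mouse 1, 8 without blood mouse 5 and 9 without blood mouse 2.

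**Figure D5:**
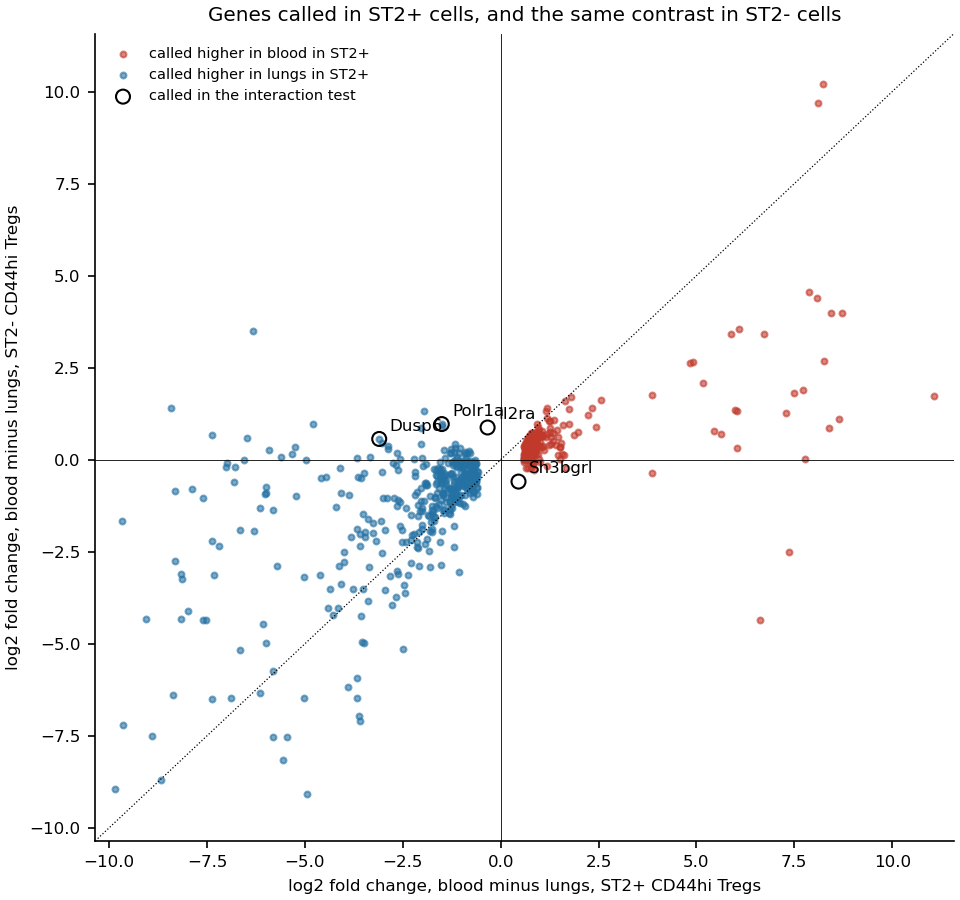
Log2 fold change, blood minus lungs, of the 570 genes called in ST2+ cells (x axis) and of the same genes in ST2- CD44hi cells (y axis), with equal values on the dotted line. The genes were chosen on the x axis, so their values on the x axis were fixed to be large. None of the genes called in both populations changed direction, and the 4 genes called in the interaction test are circled.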

How the data were processed

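RNA of ST2+ CD44hi Tregs of blood and lungs was read as 9 of 67 kept libraries. The authors made full-length cDNA with SMART-Seq v4 and NexteraXT libraries, and deposited raw counts of single reads per Ensembl gene (release 91) in 70 columns. The submitters' processing notes name CASAVA 1.8.2, STAR, Picard, SAMtools, FastQC and HTSeq 0.4.1. How duplicate reads were handled is not given in the sources used here.

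From the counts, columns over 1000000 and protein-coding genes (GENCODE M21) with at least 1 CPM in 10% of kept libraries entered 1 fit of 14 groups in edgeR 4.0.16 (TMM, quasi-likelihood test, two-sided, Benjamini-Hochberg adjustment over 13173 genes; R 4.3.3), with no mouse term. CPM was scaled to the column total over all genes multiplied by the TMM factor of the library. DESeq2 1.42.0 and limma 3.58.1 were alternatives, and leave-one-out fits, a mouse block, other filters and library sets were run too. The script was tested on simulated data. The same 5 mice gave all groups. Deviations of blood and lungs libraries of the same mouse correlated by 3.89e-05 on average (-0.0581 to 0.0338, 7889 genes), and by 0.00109 between different mice. Within a group each library came from a separate mouse.

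Members and gene lists were chosen with earlier results of these data known. Genes were named by rule: in each direction the 8 smallest adjusted p and the 5 largest fitted folds at 20 CPM or more, all recirculation and chemokine receptor genes measured, up to 6 called members per direction of every other list (or the 2 highest members where none was called), genes of the gate, Mki67, and the 6 smallest interaction p. Promoters came from RefSeq (GRCm38.p6), found for 86 of 108 named genes, and coordinates of genes from GENCODE M21 (GRCm38). Some genes that the rule names are not reported here.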

Additional observations from a re-analysis of the deposited data

Results flagged for a closer look

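In 230 groups of 4 or 5 values, 17 had 1 library apart from the others by Dixon's test, and chance gives about 1 in 20. Among genes higher in lungs, Nr4a1 had its lowest lungs value at 638 CPM, next to 928 CPM. Lungs libraries that stood above the rest held 558 CPM of Areg, 116 CPM of Il10, 367 CPM of Tnfrsf9, 130.4 CPM of Tnfsf11, 75.3 CPM of Klf4, 347 CPM of Il2ra and 329.9 CPM of Gpr183. Values of 1 or 2 counts set apart 0.442 CPM of Hacd4 and 0.999 CPM of Cx3cr1, each against 0 in the other lungs libraries. The summed platelet markers reached 76.0 CPM in 1 lungs library, the erythroid markers 18.1 CPM and the basophil and mast cell markers 0.4997 CPM. In blood, 1 library stood above the rest with 599.9 CPM of Mcm6 or 10.4 CPM of Atf3, and 1 below the rest with 184 CPM of Foxp1 or 2.77 CPM of Nr4a3.

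The difference between blood and lungs depended on ST2 for 4 genes in the interaction test. On the log2 scale, as the ST2+ difference minus the ST2- difference, it was -3.67 for Dusp6, -1.21 for Il2ra, -2.47 for Polr1a and 1.05 for Sh3bgrl.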

How the results depend on the processing

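Over 23 alternatives, 22 of them fixed with the design and 1 added after seeing the data (limma voom without quality weights), the 570 calls became 880 with DESeq2, 318 in a fit of the 9 members alone, 172 in a test against 1.5-fold (15 higher in blood), 852 in voom without quality weights, and 369 to 673 on leaving out 1 library, lowest without blood mouse 3. The other settings gave 466 to 788. Voom with quality weights, the kind of fit the study used, called 560, of which 245 were higher in blood, and shared 395 with the 570. With all 70 libraries the median of all genes was -0.11 log2 in place of 0. The interaction gave 86 calls with DESeq2, 4 with voom and quality weights, of which 1 was among the 4 of edgeR, and 0 to 9 on leaving out 1 library. Of 74 named calls, 36 were kept in all 23 alternatives and 0 reversed, and of 34 named genes not called, 4 were called in 1 or more. The smaller fits held fewer libraries, and the test against 1.5-fold has a stricter null. The cause of these changes was not tested.

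With mouse as a replicate block, 639 genes were called in edgeR (538 of the 570) and 598 in voom, and the interaction called 7. In edgeR the block lost Ifit3 and added Ccr1, and changed no other call among the named genes. Counting noise and amplification from at most 220 cells limit genes of a few CPM, where 1 count was worth 0.420 to 0.684 CPM, and 55 sorted cells stand behind blood mouse 3.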

Other observations

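Called genes differed in exon length by direction. The median summed exon length was 5224 bases for genes higher in lungs, 2931 bases for genes higher in blood and 4393 bases for all genes tested. Their median levels were 124 CPM in lungs and 39.0 CPM in blood for the former, and 60.5 CPM in lungs and 110.2 CPM in blood for the latter. No test of length was run.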
